A study of Mus musculus with 6 samples.

Results

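The insulin-like growth factor (IGF) system was followed here through 10 genes, chosen by name from the 17558 genes of the deposited expression table: the ligands Igf1 and Igf2, the receptors Igf1r and Igf2r, and the binding proteins Igfbp2, Igfbp3, Igfbp4, Igfbp5, Igfbp6 and Igfbp7. All 10 had transcripts in the table and all 10 passed the filter on low counts, as did 12643 genes in all. IGF1 and IGF2 are secreted peptides that activate the receptor tyrosine kinase IGF1R, which signals through insulin receptor substrates to the PI3K-Akt-mTOR and Ras-MAPK branches. IGF2R carries no kinase and takes IGF2 into the cell for breakdown, and the binding proteins hold the ligands outside the cell, where proteases release them. In muscle cells the system is known for driving myoblast proliferation and differentiation, and IGF2 made by differentiating myoblasts acts back on the same cells.

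The cells were C2C12, an immortalized mouse myoblast line that fuses into myotubes when serum is lowered. RNA was taken 48 h after the switch to a low horse serum medium that contained insulin, transferrin and selenium, so every group received insulin. The 3 groups, with 2 libraries each, carried a short hairpin RNA of scrambled sequence (shScr, labelled wild type), a hairpin against Pkm1 (shPkm1) or a hairpin against Pkm2 (shPkm2). Pkm1 and Pkm2 are splice forms of pyruvate kinase M, the last enzyme of glycolysis. The labels do not say whether the 2 libraries of a group came from separate cultures or clones, so the p-values measure only the spread between these libraries, which may be technical.

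Library totals ran from 18216896 to 19796036 estimated counts. The targeted gene was examined by its mutually exclusive exons of 167 bases on chromosome 9 (GRCm38). The transcript with the upstream exon (59675029 to 59675195), the Pkm1 form, was at 546 and 589 TPM (a level scaled by transcript length and library size) in shScr, 243 and 218 in shPkm1, and 254 and 254 in shPkm2. The transcript with the downstream exon (59675568 to 59675734), the Pkm2 form, was at 1073 and 1517 TPM in shScr, 1278 and 1379 in shPkm1, and 2700 and 2630 in shPkm2. In TPM, the Pkm2 form was thus higher, not lower, in the shPkm2-labelled libraries, and the Pkm1 form was lower in both groups with a Pkm hairpin. For this reason "shPkm2" below names a label only. The split between the forms is an estimate that was not tested, and TPM differences between groups depend on the scaling. Over the whole Pkm gene, the fitted log2 difference from shScr was -0.63 ± 0.13 in shPkm1 and 0.20 ± 0.13 in the shPkm2-labelled libraries, the latter not called. All 10 myoblast and myotube markers were detected in every library, and their summed level was 24189 and 18561 TPM in shScr, 9815 and 10697 in shPkm1, and 1261 and 1171 in the shPkm2-labelled libraries. Summed markers of other cell types were far below these, at most 0.41 TPM for endothelial cells and 0.48 for glia and neurons. Those of bone and cartilage were at 4.80 and 7.36 TPM in shScr and from 15.1 to 18.2 in the other 4 libraries, those of adipocytes at 1.88 and 2.08 against 3.47 to 4.24, and those of leukocytes at 0.82 and 1.72 against 3.06 to 4.11. These sums were thus higher in both groups with a Pkm hairpin, but not every marker was. The adipocyte markers Adipoq and Plin1 were both at 0 in shPkm1 library 2 and in the shPkm2-labelled libraries. Of the bone and cartilage markers, Ibsp was at 0 in every library, Acan in all but shScr library 2, and Sp7 in shScr only. Only 2 of 4 leukocyte markers had values. The part of these sums in the results was not tested. In bulk RNA, fewer cells of a type and less RNA per cell cannot be told apart.

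Promoter stretches are shown for 4 members that differed at least 2-fold from shScr in at least 1 comparison, to give the sequence at the start sites behind those values. Igf1 and Igfbp6 also differed by that much, but their RefSeq stretches lie 2043 and 176 bases from the start of their leading transcripts and are not shown. Each is the 250 bases before a RefSeq start site (GRCm38.p6), written 5′ to 3′ on the gene's strand, and capitals mark motif matches on either strand. The motifs searched were the E-box read by myogenic factors, spelled CANNTG, the TATA element of core promoters, spelled TATAAA, and the GC box, spelled GGGCGG. A Foxo motif, spelled TGTTTAC, and the E-box form CAGCTG, which is a case of CANNTG, were searched as well. The Igf2 stretch, chr7:142657497-142657746 on the minus strand, lies before the start of the transcript with the highest Igf2 level. The Igfbp3 stretch is chr11:7213924-7214173 on the minus strand. The Igfbp4 stretch is chr11:99040994-99041243 on the plus strand, and that of Igfbp5 is chr1:72874866-72875115 on the minus strand.
Igf2: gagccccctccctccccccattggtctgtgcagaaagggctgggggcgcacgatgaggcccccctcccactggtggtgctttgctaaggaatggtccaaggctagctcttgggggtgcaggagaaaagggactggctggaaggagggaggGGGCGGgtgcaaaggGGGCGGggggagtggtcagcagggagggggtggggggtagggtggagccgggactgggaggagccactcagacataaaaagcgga
Igfbp3: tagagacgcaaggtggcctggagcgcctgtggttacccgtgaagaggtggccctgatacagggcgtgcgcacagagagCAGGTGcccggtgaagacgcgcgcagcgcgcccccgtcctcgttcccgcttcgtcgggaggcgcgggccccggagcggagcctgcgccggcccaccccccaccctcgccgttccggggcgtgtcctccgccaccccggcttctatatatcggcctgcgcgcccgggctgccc
Igfbp4: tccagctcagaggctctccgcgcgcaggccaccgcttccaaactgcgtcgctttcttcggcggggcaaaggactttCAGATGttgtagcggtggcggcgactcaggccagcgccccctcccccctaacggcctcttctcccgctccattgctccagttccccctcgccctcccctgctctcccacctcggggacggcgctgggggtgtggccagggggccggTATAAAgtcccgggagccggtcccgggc
Igfbp5: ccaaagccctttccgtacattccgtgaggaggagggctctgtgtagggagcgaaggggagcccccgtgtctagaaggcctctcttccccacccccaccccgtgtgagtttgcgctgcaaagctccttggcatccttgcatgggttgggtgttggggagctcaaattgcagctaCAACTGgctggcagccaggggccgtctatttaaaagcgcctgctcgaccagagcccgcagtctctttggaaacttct
The Igf2 stretch held 2 GC boxes, beginning 100 and 85 bases before the start, and no E-box. Igfbp3 held 1 E-box (CAGGTG, 172 bases before the start), Igfbp4 an E-box (CAGATG, 174 bases before) with a TATA element 28 bases before, and Igfbp5 an E-box (CAACTG, 77 bases before). Of 32851 RefSeq stretches of this length, 66.2% held CANNTG, 12.4% TATAAA and 32.7% GGGCGG, so these matches are common and describe the letters only. The Foxo motif, held by 3.17% of all stretches, was found in none of the stretches of the 10 members. CAGCTG, held by 13%, was not in the 4 printed here. It was in the Igf1 stretch that is not shown, 157 bases before that RefSeq start. A missing match says only that these letters are not in these windows.

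Igf1 and Igf2, the ligands, both differed from the controls in shPkm1 and in the shPkm2-labelled libraries, Igf1 in opposite directions and Igf2 downward in both. Igf1 (chromosome 10, 87858265 to 87937047) was at 2.73 and 3.62 CPM (counts scaled by library size and edgeR's TMM factors) in shScr, 72.3 and 59.4 in shPkm1, and 1.32 and 0.859 in the shPkm2-labelled libraries. No groups overlapped, and the shPkm1 libraries stood far above the other 4. Igf1 was 20.6-fold higher in shPkm1 than in shScr (log2 fold change 4.36 ± 0.17 SE, adjusted p = 4.12e-10 by edgeR's quasi-likelihood test with Benjamini-Hochberg adjustment, as for all adjusted p below). The size of that rise depended on the scale, at 2.90 with limma on log2(FPKM + 1), where the added 1 compresses low values. In the shPkm2-labelled libraries it was 2.92-fold lower (log2 fold change -1.54 ± 0.28, adjusted p = 2.48e-04), from 43 and 64 estimated counts in shScr to 28 and 18. That call was lost with limma on log2(FPKM + 1), at -0.26 with an adjusted p of 0.0955.

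Igf2 (chromosome 7, 142650768 to 142666816), the ligand with the higher TPM in shScr, was at 1431 and 660.3 CPM in shScr, 205 and 179 in shPkm1, and 23.4 and 24.3 in the shPkm2-labelled libraries. The groups did not overlap, and the 2 shScr libraries differed from each other by 2.17-fold. Igf2 fell by 2.45 ± 0.25 on the log2 scale in shPkm1 (5.45-fold, adjusted p = 3.00e-06) and by 5.45 ± 0.30 in the shPkm2-labelled libraries (43.8-fold, adjusted p = 3.30e-09). Without shScr library 1 the falls were -1.78 and -4.79, both still called. The summed myoblast and myotube markers given above were ordered the same way across the groups, and their part in the Igf2 result was not tested. In TPM, Igf1 made up 0.0895% and 0.257% of the summed ligand level in shScr, 15.5% and 13.7% in shPkm1, and 2.83% and 1.78% in the shPkm2-labelled libraries, while that sum went from 558.7 and 292 TPM in shScr to 123 and 107 in shPkm1 and 12.7 and 12.4 in the shPkm2-labelled libraries.

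**Figure D1:**
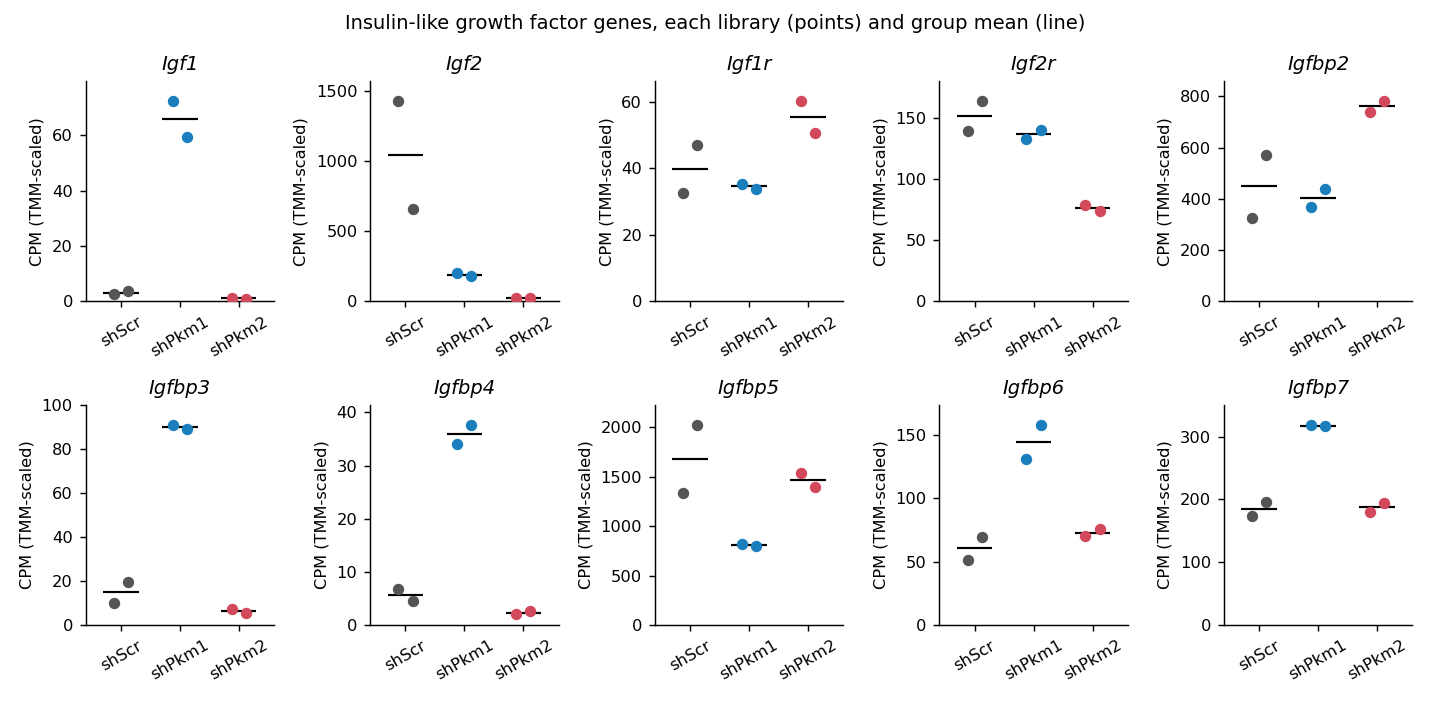
Level of each of the 10 genes in CPM (TMM-scaled, linear axes starting at 0), one point for each of the 2 libraries of shScr, shPkm1 and shPkm2 and a line at the group mean. Igf1, Igfbp3 and Igfbp4 stand highest in shPkm1, Igf2 highest in shScr, and Igfbp2 highest in the shPkm2-labelled libraries.

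The ligand genes were also split by transcript. Igf1 transcripts with the 52-base exon at chromosome 10, 87915298 to 87915349, whose inclusion changes the end of the precursor peptide, were at 0.27 and 0.08 TPM in shScr, 7.30 and 4.34 in shPkm1, and 0.05 and 0 in the shPkm2-labelled libraries. Transcripts without that exon were at 0.23 and 0.61, 11.2 and 10.1, and 0.31 and 0.22 TPM in the same order, so both kinds were highest in shPkm1, and the low levels in the other groups give no usable share. For Igf2, the start at 142657496, whose promoter is printed above, gave between 86.6% and 100% of the gene's TPM in all 6 libraries. The start at 142666816 gave 11.2% and 0% in shScr, 3.95% and 13.1% in shPkm1, and 0% in both shPkm2-labelled libraries. Splitting reads between transcripts of 1 gene is an estimate, and these splits were not tested.

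In the main fit, the log2 differences from shScr were smaller for the receptors than for the ligands, an order that was not tested. It depended on the scale. In the shPkm2-labelled libraries, Igf1 was at -0.26 with limma on log2(FPKM + 1), while Igf2r was at -0.606 or lower in every alternative. Igf1r, the signalling receptor (chromosome 7, 67952257 to 68233668), was at 32.6 and 47.0 CPM in shScr, 35.5 and 33.7 in shPkm1, and 60.3 and 50.7 in the shPkm2-labelled libraries. The shPkm1 libraries lay inside the shScr range, with a log2 difference of -0.21 ± 0.15 (adjusted p = 0.249), and of -0.44 without shScr library 1. The libraries labelled shPkm2 lay above it, with a rise of 0.48 ± 0.15 (adjusted p = 0.0116) that was lost without shScr library 1 (0.24, adjusted p = 0.0632) or without shPkm2 library 1 (0.35, adjusted p = 0.117). Igf2r, the clearance receptor for IGF2 (chromosome 17, 12682406 to 12769706), was at 139 and 164 CPM in shScr, 133 and 140.3 in shPkm1, and 79.1 and 73.5 in the shPkm2-labelled libraries. It was lower there by 1.98-fold (log2 fold change -0.99 ± 0.11, adjusted p = 2.78e-06). The shPkm1 difference of -0.15 ± 0.11 did not pass the test (adjusted p = 0.237), and was -0.26 without shScr library 1. Insr, the insulin receptor, which can pair with IGF1R chains, did not pass in any of the 3 comparisons, with log2 differences of -0.04 ± 0.13, 0.06 ± 0.13 and 0.11 ± 0.13. Scaled by library totals alone, the second of these passed (0.39, adjusted p = 0.0263).

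The binding proteins split into those that rose in shPkm1 and those that did not. Igfbp3 (chromosome 11, 7206086 to 7215498), the main carrier of IGFs in serum, was at 10.1 and 19.6 CPM in shScr, 91.0 and 89.1 in shPkm1, and 7.25 and 5.58 in the shPkm2-labelled libraries. Igfbp4 (chromosome 11, 99040005 to 99052655), an inhibitor of IGF action that the protease PAPPA cleaves, was at 6.72 and 4.52, 34.0 and 37.7, and 2.07 and 2.62 CPM in the same order. For both genes the shPkm1 libraries were the highest, the shPkm2-labelled libraries the lowest, and no groups overlapped. Against shScr, Igfbp3 was 6.01-fold higher in shPkm1 (log2 fold change 2.59 ± 0.21, adjusted p = 2.88e-07). In the shPkm2-labelled libraries it was 2.33-fold lower (-1.22 ± 0.24, adjusted p = 5.07e-04). That call was lost with limma on log2(FPKM + 1) with no filter (-0.66, adjusted p = 0.118). The fall was -1.61 without shScr library 1 and -0.66 without shScr library 2. Igfbp4 was 6.42-fold higher in shPkm1 (2.68 ± 0.17, adjusted p = 3.65e-08) and 2.38-fold lower in the shPkm2-labelled libraries (-1.25 ± 0.22, adjusted p = 2.32e-04), the latter at -0.58 and still called with limma on log2(FPKM + 1).

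Igfbp6, which binds IGF2 in preference to IGF1, and Igfbp7, a related protein that binds IGFs weakly, also rose in shPkm1. Igfbp6 (chromosome 15, 102144186 to 102149512) was at 51.3 and 69.8 CPM in shScr, 131 and 158 in shPkm1, and 70.1 and 75.5 in the shPkm2-labelled libraries. Its rise in shPkm1 was 2.39-fold (log2 fold change 1.25 ± 0.14, adjusted p = 5.35e-06). The difference of 0.26 ± 0.14 in the shPkm2-labelled libraries did not pass (adjusted p = 0.108), although those libraries lay just above shScr. That difference was 0.51 without shScr library 2. It passed with library totals alone (0.58) and in all 3 limma fits on FPKM (0.60 to 0.61). Igfbp7 (chromosome 5, 77349240 to 77408045) was at 173 and 195 CPM in shScr, 319 and 316 in shPkm1, and 181 and 194 in the shPkm2-labelled libraries. It rose by 1.72-fold in shPkm1 (0.78 ± 0.10, adjusted p = 2.10e-05), and the shPkm2-labelled libraries overlapped with shScr (0.02 ± 0.10, adjusted p = 0.846). The call on Igfbp7 there depended on the scaling, since it passed with library totals alone (0.35, adjusted p = 0.0142) and in all 3 limma fits on FPKM (0.35 in each, adjusted p from 0.0134 to 0.0403).

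Igfbp5 and Igfbp2, neighbours on chromosome 1 with 5591 bases between them, followed other patterns. Igfbp5 (72858065 to 72874865), the binding protein that rises as myoblasts differentiate, was at 1336 and 2026 CPM in shScr, 820.3 and 797 in shPkm1, and 1538 and 1392 in the shPkm2-labelled libraries. It was 2.08-fold lower in shPkm1 (log2 fold change -1.06 ± 0.17, adjusted p = 1.14e-04). The shPkm2-labelled libraries lay inside the shScr range (-0.20 ± 0.17, adjusted p = 0.300), a value that was -0.47 without shScr library 1. Igfbp2 (72824480 to 72852474), an IGF carrier abundant in fetal tissue, was at 325 and 572 CPM in shScr, 369 and 437.5 in shPkm1, and 740.3 and 781 in the shPkm2-labelled libraries. The last group was 1.70-fold higher than shScr (0.76 ± 0.20, adjusted p = 0.00368), and the shPkm1 libraries lay inside the shScr range (-0.15 ± 0.20, adjusted p = 0.512). Both values depended on the control library. The shPkm2 value was 0.41 without shScr library 1 and 1.23 without shScr library 2. The uncalled shPkm1 value was -0.51 and 0.31 in the same order, so its sign was not stable.

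Counted over the 10 genes, 5 rose and 2 fell in shPkm1 against shScr, where 63.1% of all tested genes were called (31.8% higher, 31.4% lower). In the shPkm2-labelled libraries, 2 rose and 5 fell against shScr, where 68% of all tested genes were called (33.9% higher, 34.2% lower). The number of members called, 7 of 10 in each, is near that background. Leaving out either shScr library removes the shScr spread from the fit, so calls against shScr can come more easily. Without shScr library 1 the counts were 5 higher and 5 lower in shPkm1, and 1 higher and 6 lower in the shPkm2-labelled libraries. Without shPkm2 library 1 the latter were 1 higher and 5 lower. The libraries of the groups did not overlap for 7 members in shPkm1 (81% of all tested genes) and for 8 in the shPkm2-labelled libraries (83.9%). Scaled by library totals alone, 5 members rose and 2 fell in shPkm1 and 4 rose and 5 fell in the shPkm2-labelled libraries, while all tested genes then gave 5116 higher and 2656 lower, and 6095 higher and 2702 lower. The comparisons share the shScr libraries: Igf1, Igf2, Igfbp3 and Igfbp4 were called in both, with 4.36, -2.45, 2.59 and 2.68 in shPkm1 and -1.54, -5.45, -1.22 and -1.25 in the shPkm2-labelled libraries, on the log2 scale. Between shPkm1 and the shPkm2-labelled libraries, where 53% of all tested genes were called (25.7% higher, 27.3% lower), all 10 members differed, with 3 higher and 7 lower in the latter. The libraries did not overlap for any of the 10, as for 79.8% of all tested genes. The differences ran from -5.91 ± 0.20 for Igf1 (60.0-fold, adjusted p = 6.90e-11; -3.15 with limma on log2(FPKM + 1)) to 0.92 ± 0.20 for Igfbp2 (1.89-fold, adjusted p = 0.00154). Igfbp4 differed by -3.93 (-3.06 in that limma fit), Igfbp3 by -3.81, Igf2 by -3.01, Igfbp6 by -0.99, Igf2r by -0.84, Igfbp7 by -0.76, Igf1r by 0.68 and Igfbp5 by 0.86 on the same scale.

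**Figure D2:**
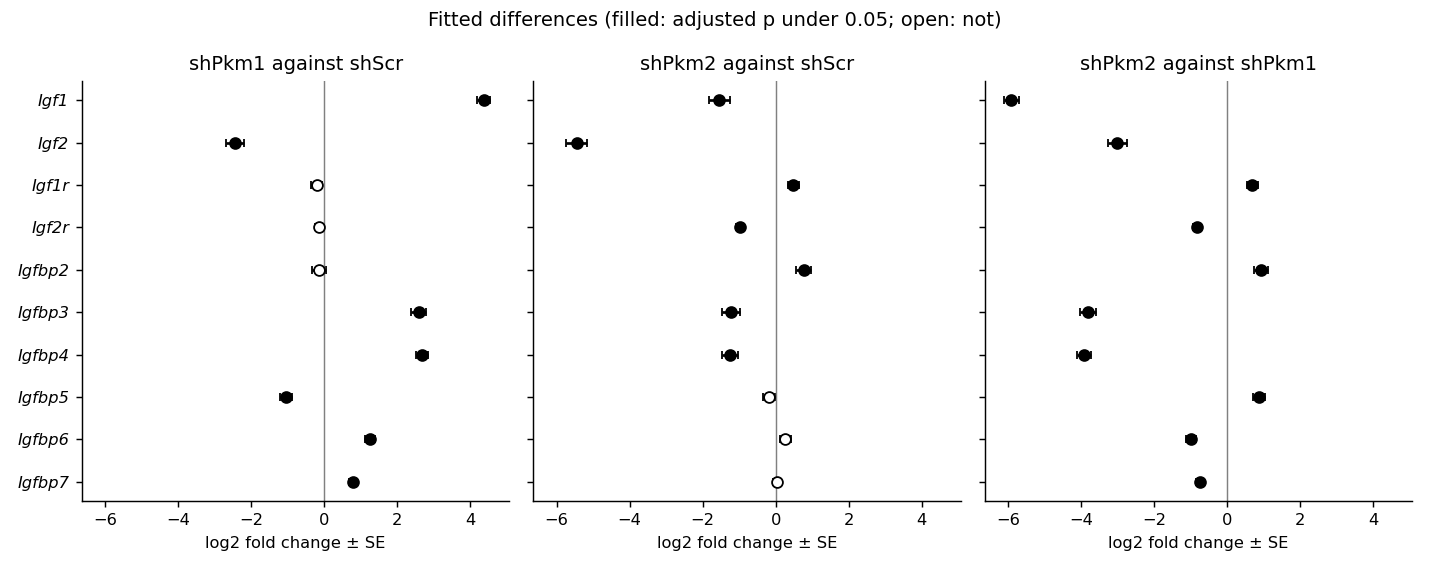
Fitted log2 fold change of each gene with its standard error in the 3 comparisons, filled where the adjusted p is under 0.05 and open where it is not. Igf1, Igfbp3 and Igfbp4 lie right of 0 in shPkm1 and left of 0 in the shPkm2-labelled libraries, and all 10 points are filled in the direct comparison.

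Levels were compared between genes in TPM, which divides by transcript length. In shScr the order of group means was Igfbp2 (535.8 TPM), Igf2 (424.9) and Igfbp5 (401.6), whose libraries overlapped, followed by Igfbp7 (241) and Igfbp6 (68.7). In shPkm1 it was Igfbp2 (641), Igfbp7 (541), Igfbp5 (250.2), Igfbp6 (212) and Igf2 (98.2), with no overlap between neighbours. In the shPkm2-labelled libraries it was Igfbp2 (1275), Igfbp5 (474), Igfbp7 (334), Igfbp6 (112) and Igf2r (16.1), again with no overlap, and Igf2 came next at 12.3. Igf1 had the lowest level of the 10 in shScr (0.625 TPM) and in the shPkm2-labelled libraries (0.29), whereas in shPkm1 it stood above Igf1r (16.8 against 5.18 TPM). Summed over the 6 binding proteins, the level was 930 and 1590 TPM in shScr, 1726 and 1763 in shPkm1, and 2243 and 2162 in the shPkm2-labelled libraries. TPM carries no TMM scaling, and differences between groups depend on the scaling: from shScr to the shPkm2-labelled libraries the mean of Igfbp5 went from 401.6 to 474 in TPM but from 1681 to 1465 in CPM, and that of Igfbp7 from 241 to 334 in TPM but from 184 to 187 in CPM. Igfbp2, Igfbp5 and Igfbp7 together held 93.1% and 93.8% of that sum in shScr, 82.6% and 81.6% in shPkm1, and 94.7% and 94.5% in the shPkm2-labelled libraries.

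**Figure D3:**
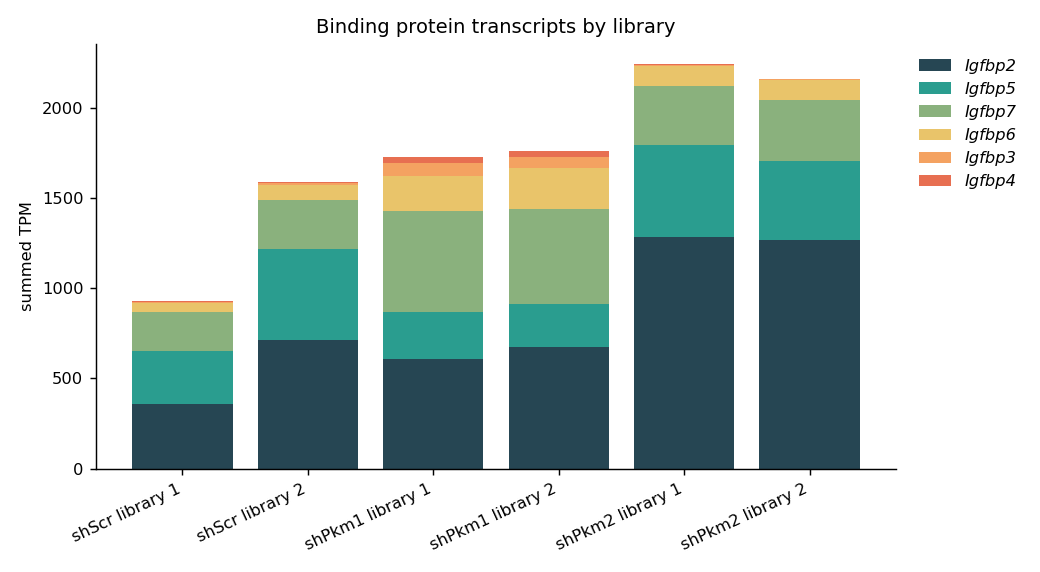
Stacked bars of the TPM of the 6 binding protein genes in each of the 6 libraries, starting at 0. Igfbp2 forms the largest segment in every bar, and the summed level runs from 930 in shScr library 1 to 2243 in the shPkm2-labelled libraries.

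The other genes that regulate the system were taken from a list of 24, of which 19 were tested. In shPkm1, 9 were higher and 5 lower than in shScr (median log2 difference 0.35), and in the shPkm2-labelled libraries, 9 were higher and 8 lower (0.06). These are 73.7% and 89.5% of the 19 tested, beside 63.1% and 68% of all tested genes, whose median was near 0 in both. With limma on log2(FPKM + 1), which tested 16 of them, the counts were 10 higher and 2 lower, and 9 higher and 3 lower. The median in the shPkm2-labelled libraries had no stable sign, at -0.50 with no low-count filter and 0.39 with library totals alone. Of the proteases that release IGFs, Pappa, which cleaves IGFBP4 and IGFBP5, had 96 and 177 estimated counts in shScr, 101 and 99 in shPkm1, and 700 and 679 in the shPkm2-labelled libraries. It was higher by 2.01 ± 0.17 on the log2 scale in the last group (adjusted p = 3.08e-07). The value of -0.64 ± 0.20 in shPkm1 (adjusted p = 0.0143) was lost without shScr library 2 (-0.23, adjusted p = 0.319), without shPkm1 library 1 (-0.68, adjusted p = 0.0646) and without shPkm1 library 2 (-0.58, adjusted p = 0.0914).

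Pappa2, its relative that cleaves IGFBP3 and IGFBP5, had 36 and 39 estimated counts in shScr, 108 and 116 in shPkm1, and 12 and 14 in the shPkm2-labelled libraries. It was higher in shPkm1 (1.37 ± 0.23, adjusted p = 1.75e-04) and lower in the shPkm2-labelled libraries (-1.85 ± 0.30, adjusted p = 1.17e-04), on the log2 scale. Stc1, a stanniocalcin that inhibits these proteases, had 12 and 19, 151 and 134, and 11 and 5 estimated counts in the same order. It was higher in shPkm1 (2.99 ± 0.30, adjusted p = 2.01e-06), whereas its fall in the shPkm2-labelled libraries (-1.27 ± 0.45, adjusted p = 0.0224) rested on few counts. That fall was lost without shScr library 2 (-0.99, adjusted p = 0.125) or without shPkm2 library 2 (-0.82, adjusted p = 0.173), and was -1.92 without shPkm2 library 1. Stc2, the other stanniocalcin, passed against shScr in neither comparison (0.35 ± 0.27, adjusted p = 0.273, and -0.51 ± 0.29, adjusted p = 0.131). Adam12, another protease of IGFBP3 and IGFBP5, had 1030 and 1180 estimated counts in shScr, 1881 and 1799 in shPkm1, and 364 and 326 in the shPkm2-labelled libraries. It was higher in shPkm1 (log2 fold change 0.53 ± 0.10, adjusted p = 3.95e-04) and lower in the shPkm2-labelled libraries (-2.01 ± 0.11, adjusted p = 2.80e-09). Adam9, a protease of the same family, was higher in both (0.98 ± 0.10, adjusted p = 3.88e-06, and 1.09 ± 0.10, adjusted p = 8.47e-07).

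The RNA-binding proteins that bind Igf2 mRNA also differed. Igf2bp2, which is needed for myoblast growth, had 615 and 590 estimated counts in shScr, 270 and 239 in shPkm1, and 1586 and 1413 in the shPkm2-labelled libraries. It was lower in shPkm1 (log2 fold change -1.45 ± 0.13, adjusted p = 7.22e-07) and higher in the shPkm2-labelled libraries (0.98 ± 0.12, adjusted p = 7.23e-06). Igf2bp3, a fetal member of the family, went from 88 and 110 counts to 9 and 13 in shPkm1 (-3.36 ± 0.26, adjusted p = 2.56e-07) and to 232 and 264 in the shPkm2-labelled libraries (0.99 ± 0.17, adjusted p = 1.94e-04). Igf2bp1 had 31 and 17 counts in shScr, 1 and 1 in shPkm1, and 8 and 6 in the shPkm2-labelled libraries, too few for a fold to be read closely.

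**Figure D4:**
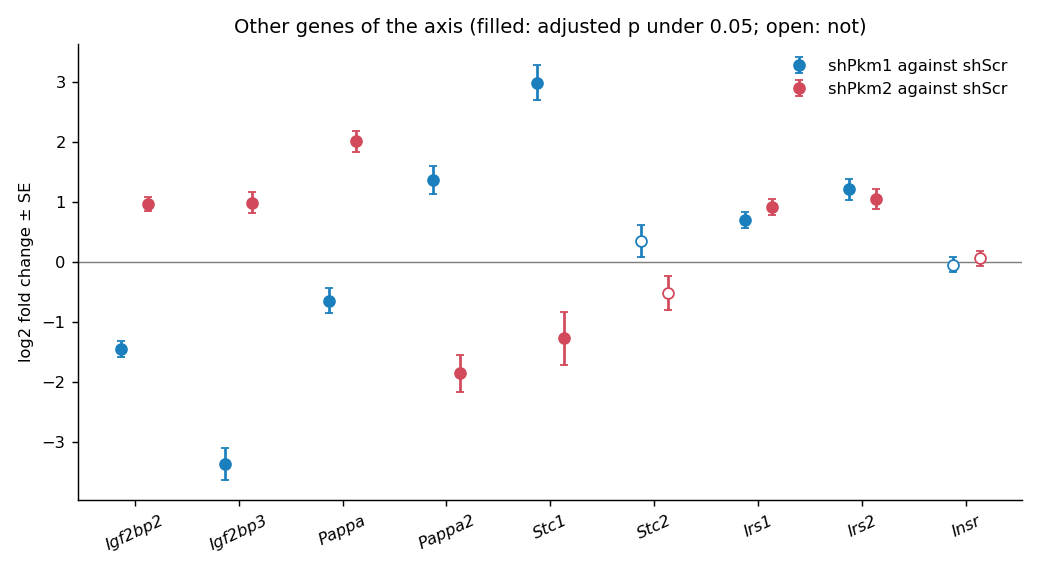
Log2 fold change with standard error of 9 further genes of the system in shPkm1 and in the shPkm2-labelled libraries, each against shScr, filled where the adjusted p is under 0.05. Igf2bp2, Igf2bp3, Pappa, Pappa2 and Stc1 lie on opposite sides of 0 in the comparisons, Irs1 and Irs2 above 0 in both, and Insr near 0 in both.

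Downstream of the receptor, both substrate genes were higher than in shScr in shPkm1 and in the shPkm2-labelled libraries. Irs1, which passes the receptor signal to PI3K, had 630 and 923 estimated counts in shScr, 1527 and 1359 in shPkm1, and 1987 and 1689 in the shPkm2-labelled libraries. It was higher in both groups, by 0.70 ± 0.14 (adjusted p = 5.72e-04) and 0.92 ± 0.14 (adjusted p = 4.69e-05) on the log2 scale. Irs2, its relative, was higher by 1.21 ± 0.17 (adjusted p = 4.06e-05) and 1.06 ± 0.17 (adjusted p = 1.02e-04). Grb10, an inhibitor of the receptor, fell from 43 and 29 estimated counts in shScr to 3 and 5 in shPkm1 and 4 and 2 in the shPkm2-labelled libraries.

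Of 34 tested genes of the PI3K-Akt-mTOR branch, 10 were higher and 14 lower in shPkm1 (median log2 difference -0.16), and 12 higher and 14 lower in the shPkm2-labelled libraries (-0.14). These are 70.6% and 76.5% of the 34 tested, beside the same 63.1% and 68% of all tested genes. Scaled by library totals alone the counts were 14 and 11, and 15 and 9. Akt2, the kinase that carries insulin signalling in muscle, was lower in shPkm1 (log2 fold change -1.52 ± 0.11) and in the shPkm2-labelled libraries (-2.21 ± 0.11). Pik3r1, the regulatory PI3K subunit, was higher in shPkm1 (1.53 ± 0.15), as was the adaptor Grb14 (2.04 ± 0.14). Of 22 tested Ras-MAPK genes, 8 were higher and 10 lower in shPkm1, and 9 higher and 10 lower in the shPkm2-labelled libraries (11 and 7, and 11 and 8, by library totals alone). These are 81.8% and 86.4% of the 22 tested, again beside 63.1% and 68% of all tested genes. Without shPkm1 library 1 both counts in shPkm1 were smaller. Hras (-1.20 and -1.55) and Map2k2 (-1.16 and -1.32) were lower in both groups, and Braf (0.99 and 1.02) and Mapk3 (0.67 and 0.96) were higher in both, on the log2 scale.

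Among 20 genes known as targets of the Foxo factors, which Akt holds out of the nucleus, 3 were higher and 9 lower in shPkm1, and 9 higher and 7 lower in the shPkm2-labelled libraries. These are 60% and 80% of the list, beside 63.1% and 68% of all tested genes. By library totals alone the counts in the shPkm2-labelled libraries were 9 and 5. The counts in shPkm1 were 7 and 8 by library totals alone, and 5 and 8 without shScr library 1. Trim63, the muscle ubiquitin ligase MuRF1, had 1071 and 838 estimated counts in shScr, 140 and 184 in shPkm1, and 14 and 18 in the shPkm2-labelled libraries (log2 fold changes -2.78 ± 0.18 and -6.23 ± 0.25). Pdk4, an inhibitor of pyruvate dehydrogenase, had 187 and 234 estimated counts in shScr, 111 and 117 in shPkm1, and 893 and 821 in the shPkm2-labelled libraries. It was higher in the last group (1.69 ± 0.12, adjusted p = 3.36e-08), whereas its shPkm1 counts lay below those of shScr. Igf2 and Igf2r are imprinted, and 15 of 31 listed imprinted genes were tested. Of these, 6 were higher and 8 lower in shPkm1, and 4 higher and 7 lower in the shPkm2-labelled libraries, which are 93.3% and 73.3% of those tested. With limma on log2(FPKM + 1), which tested 12 of them, the counts were 6 higher and 4 lower in shPkm1 and 4 higher and 5 lower in the shPkm2-labelled libraries, and with no filter the latter were 4 and 4. Mest, expressed from the paternal copy, had 15 and 30 estimated counts in shScr, 979 and 1046 in shPkm1, and 10 and 7 in the shPkm2-labelled libraries. Cdkn1c, a cell cycle inhibitor in the same imprinted region as Igf2, had 272 and 117, 1147 and 1155, and 8 and 3 counts in the same order. Its log2 fold change was 2.34 ± 0.27 in shPkm1 and -5.46 ± 0.54 in the shPkm2-labelled libraries. Without shScr library 1 these were 3.17 and -4.63, and without shPkm2 library 1 the second was -6.29.

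The muscle regulators and the proliferation marker moved with the groups as well. Myod1, the factor that commits cells to muscle, was lower in both groups (log2 fold changes -0.90 ± 0.10 and -2.22 ± 0.11), as was Myog, which drives terminal differentiation (-0.94 ± 0.13 and -5.35 ± 0.15). Mki67, a marker of cycling cells, was higher in both (1.46 ± 0.13 and 2.90 ± 0.13). The part of these changes in the results for the IGF genes was not tested.

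By the distance between centred log2 CPM profiles over the 6 libraries, among 10714 genes, Ccn5 (distance 0.567), Vldlr (0.742) and Mfap5 (0.807) were most like Igf1. Ccn5 was at 14.5 and 14.5 CPM in shScr, 294 and 334 in shPkm1, and 4.90 and 4.10 in the shPkm2-labelled libraries. Myl6b, a myosin light chain (0.629), Npnt (0.648) and Tmod1, an actin filament capping protein of the sarcomere (0.696), were most like Igf2. Myl6b was at 1170 and 564 CPM in shScr, 104 and 111 in shPkm1, and 14.3 and 16.4 in the shPkm2-labelled libraries. Pcdhgb2 (0.302), Rdh13 (0.325) and Pip4k2c (0.351) were most like Igfbp5.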

How the data were processed

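RNA-seq was measured in 6 libraries of C2C12 cells. The deposited table gives FPKM, TPM and estimated counts (read counts that need not be whole) for 57920 transcripts, per the file headers. HISAT, StringTie, Bowtie, RSEM, DESeq2 and the mm10 build are named in the submitters' processing notes, and their roles and versions are not given in the sources used here. The 9 columns of the authors' means were not used.

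Transcript values were summed per NCBI gene, and 17445 of 17558 genes matched a symbol. Estimated counts were rounded. Genes passing filterByExpr (minimum count 10, minimum total 15) were fitted in edgeR 4.0.16 (R 4.3.3) with TMM scaling, 3 groups in 1 quasi-likelihood fit, with Benjamini-Hochberg adjustment over all 12643 genes and a threshold of 0.05. The fit was tested on simulated data with true log2 differences set in shPkm1 against shScr. It called 87.5% of 96 genes at 1, 48.5% of 97 genes at 0.5 and 0.142% of 11984 unchanged genes. True differences near 0.5 can thus be missed, and far fewer genes were changed there than were called in the data. Alternatives used DESeq2 1.42.0, limma 3.58.1 on log2(FPKM + 1), other scalings and filters, a replicate block, and each library left out. Pkm transcripts were identified by matching RefSeq identifiers to GENCODE exons.

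The members and lists were chosen with earlier results of these data known. Named besides the members were up to 3 called genes per list and direction with a mean of at least 50 counts and groups that did not overlap, the direct parts of the system, Myod1, Myog, Mki67, Pkm, and the 3 genes most like Igf1, Igf2 and Igfbp5. Of those, a selection is described. Noncoding genes such as H19 and Airn were not analysed here.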

Additional observations from a re-analysis of the deposited data

How the results depend on the processing

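Of 30 member results, 24 were called, and 21 of these kept their direction and call in all 16 alternatives. The exceptions were Igf1 and Igfbp3 in the libraries labelled shPkm2, lost only with limma on FPKM (Igfbp3 at -0.66, adjusted p = 0.118, with no filter), and Igf1r there, lost without shScr library 1 or without shPkm2 library 1. The number of members called stayed within 1.5 times of the reported one, but not its split by direction, as given above for library totals. It also moved with limma on log2(FPKM + 1) in shPkm2 against shScr. There Igfbp6 and Igfbp7 were called higher and Igf1 was lost, and with no filter Igfbp3 was lost as well. Scaling by library totals alone put the median of all genes at 0.194, 0.332 and 0.135 (log2), from near 0, in shPkm1 and shPkm2 against shScr and between them, and gave 5116 higher and 2656 lower, 6095 and 2702, and 4280 and 2699 genes. The values that changed sign belonged to results that did not pass the test. In shPkm1 against shScr, Igf2r was 0.043 with library totals and 0.0487, 0.0521 and 0.0487 with limma on log2(FPKM + 1), log2(FPKM + 0.1) and log2(FPKM + 1) with no filter. Igfbp2 was 0.026 with totals and 0.144, 0.145 and 0.144 with limma, and with a library left out it ran from -0.505 to 0.314. Igf1r was 0.0143, 0.0258 and 0.0143 with limma and ran from -0.444 to 0.0856 with a library left out. Insr was 0.15 with totals and 0.101, 0.142 and 0.101 with limma, and ran from -0.161 to 0.0837. In shPkm2 against shScr, Igfbp5 was 0.117 with totals and 0.157, 0.158 and 0.157 with limma, and ran from -0.467 to 0.136 with a library left out. Igfbp7 ran from -0.0594 to 0.115 and Insr from -0.0346 to 0.178 with a library left out, but with totals they were 0.346 and 0.387, both called, and Igfbp7 was 0.351 to 0.352 with limma, also called. Between shPkm2 and shPkm1, Insr ran from -0.0134 to 0.23. The cause was not tested. With a replicate block, 7, 8 and 10 members and 7922, 8566 and 6682 genes were called. Igfbp6 in shPkm2 then passed (0.28, adjusted p = 0.0376). Whether same-numbered libraries share more than a label is not known. Their deviations correlated at -0.0229, 0.0415 and 0.106 over genes, which cannot settle it for single genes. Leaving out a library leaves its group with 1, which is assumed to vary like the other groups. Depth limits the genes with few counts in at least 1 group, among them Igf1, Igf2bp1, Igf2bp3, Stc1, Pappa2, Grb10, Mest, Cdkn1c and Trim63.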
